A study of Mus musculus with 6 samples.

Results

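The 10 calcium/calmodulin-dependent kinase (CaM kinase) genes were examined in the hippocampus of mice with the p300 gene, Ep300, recombined in excitatory forebrain neurons and in that of control littermates. They were chosen by name, as the genes of the CaM kinase family and of their activating kinases, and were Camk2a, Camk2b, Camk2d, Camk2g, Camk4, Camk1, Camk1d, Camk1g, Camkk1 and Camkk2. They make up 10 of the 55471 genes in the deposited table, and each of the 10 passed the filter on low counts in every fit. RNA-seq had been performed on male C57BL/6 mice of 3 to 6 months, with 1 library from the hippocampus of each mouse: 3 p300-ifKO mice (Ep300_flox;Camk2a_creERT2) and 3 control mice. In the p300-ifKO, an inducible forebrain knockout, floxed Ep300 is recombined by creERT2, a tamoxifen-dependent Cre recombinase driven by the promoter of Camk2a, which is active in excitatory neurons and not in the interneurons, glia and vessels of the same tissue. The recombined gene is described as giving a truncated p300 without acetyltransferase activity. Tamoxifen at 20 mg/mL in corn oil had been given 5 times by the intragastric route in both groups. The treatment protocol describes the controls as littermates without creERT2, whereas the description of each control library reads Camk2a_creERT2. Signs of the driver, given below, were low in each control library, which goes with the protocol.

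CaM kinases turn a rise in calcium into protein phosphorylation. Calcium that enters through NMDA receptors and voltage-gated channels binds calmodulin, which releases the autoinhibition of CaMKII, and CaMKII then phosphorylates itself and stays active after calcium has fallen, a step needed for long-term potentiation in the hippocampus. CaMKI and CaMKIV need a further phosphorylation by the CaM kinase kinases (CaMKK), and nuclear CaMKIV phosphorylates CREB, the transcription factor that recruits CBP and p300. The family is also tied to the design of the study, since the promoter of Camk2a drives the recombinase.

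The state of the libraries was examined first. Ep300, the targeted gene, had 1545, 1474 and 2334 normalized counts (counts divided by a library size factor) in control mice against 478, 1350 and 912 in the p300-ifKO mice. The p300-ifKO values were all lower, but replicate 2 came close to the lowest control. The log2 fold change was −0.97 (SE 0.33, unadjusted p 0.00369, adjusted p 0.991 in DESeq2). It passed the threshold of 0.05 without p300-ifKO replicate 2, at −1.36 with an adjusted p of 0.000356 in DESeq2. The whole gene is counted, so that transcripts with the recombined exon removed are still included. Signs of the driver were low in each control and high in each p300-ifKO library: Esr1, whose ligand binding domain is part of creERT2, had between 87.2 and 109.4 against between 2416 and 4217 normalized counts, and Arsi, the gene next to Camk2a, had between 24.2 and 38.8 against between 168 and 204. Total counts were between 23151568 and 28433823 per library. Of 47 marker genes for 10 cell types or hippocampal fields, 47 had counts, and 0 passed in DESeq2. The summed excitatory neuron markers had between 40015 and 48193 normalized counts in control and between 45621 and 46990 in p300-ifKO mice. The summed microglial markers lay higher in p300-ifKO (7979 to 9886) than in control mice (7289 to 7874), and the summed astrocyte markers lay lower (35473 to 36823 against 37965 to 39502). Single markers were mixed, with 2 of 6 microglial and 3 of 5 astrocyte markers below 0 in log2 fold change. The sums of the other types overlapped, though the median log2 fold change was 0.41 for choroid plexus and 0.22 for oligodendrocyte markers. The part of these differences in the results below was not tested. In bulk tissue, fewer cells of a type and less RNA per cell cannot be told apart.

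No CaM kinase gene passed the test between the groups. In DESeq2, 0 of 10 had an adjusted p under 0.05, against 0.00610% of all 32773 genes tested, and 0 had an unadjusted p under 0.05, against 1.32%. The adjusted p of the 10 genes lay between 0.991 and 1 in DESeq2. The edgeR quasi-likelihood test likewise gave 0 of 10 adjusted (0.0117% of all genes) and 0 unadjusted (394 of 17131 genes). With 1 surrogate variable, a fitted term for variation beyond the groups, the count was 0 of 10 (0.00915%). This term was 0.082, 0.048 and 0.496 in control libraries against −0.793, 0.309 and −0.141 in those of p300-ifKO mice, so that it was partly aligned with the groups and a value fitted with it may lose part of a group difference. Of the 10 genes, 8 had a log2 fold change below 0 and 2 above 0 in DESeq2, with Camk2g counted as below at −0.00018. Their median log2 fold change was −0.070, beside −0.046 over all genes tested, of which 54.7% were below 0. The median was −0.00435 over genes with a mean of 100 or more normalized counts, a class that holds each of the 10. The values of the 2 groups did not overlap for 1 of the 10 genes, Camk4, lower in p300-ifKO, against 3.42% of all genes in that direction, 3.21% in the other and 6.64% in either. The size of change that the data allow can be read from the 95% intervals. These excluded a change of 2-fold in either direction for 10 of the 10 genes and of 1.5-fold for 8, the exceptions being Camk2d and Camk4. Among genes with a mean of 100 or more normalized counts, as each of the 10 had, the shares were 96.5% and 67.3% (41.9% and 25.8% of all genes tested). Without p300-ifKO replicate 2, 1 of the 10 genes, Camkk2, passed in DESeq2 (−0.40, adjusted p 0.0333), in a fit that called 2.93% of all genes, 1.39% lower and 1.54% higher. These shares cover genes of every count, and those among genes with a mean of 100 or more were not computed.

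**Figure D1:**
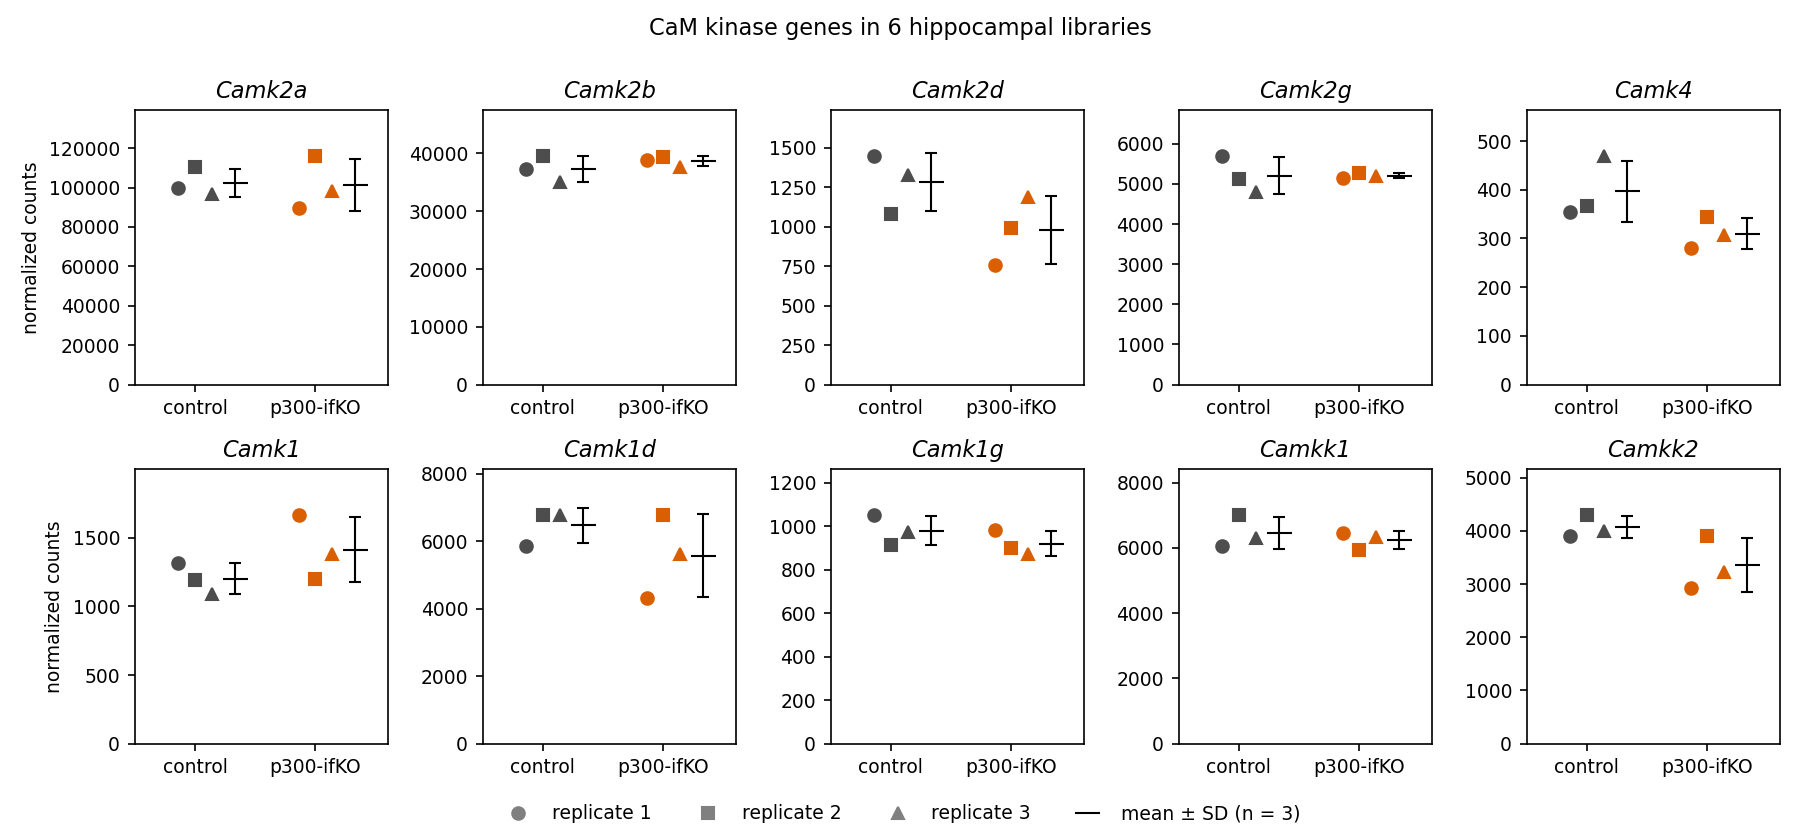
Normalized counts of the 10 CaM kinase genes (each y axis from 0) in 3 control (grey) and 3 p300-ifKO (orange) libraries, with the shape of a point giving the replicate number and black bars the mean ± SD (n = 3). The groups overlap for each gene but Camk4, where the p300-ifKO libraries reach 344 and the control libraries start at 354.

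Promoter sequence was looked at because p300 is brought to promoters and enhancers by CREB, among other factors. From the table of RefSeq promoters (GRCm38.p6, 250 bases before to 50 after the start), 8 windows were examined, for 7 of the 10 genes. Windows on the chromosome of Camk2a and Camk4 were left out of the count, so the promoters of these genes were not examined. No window was matched for Camk2g. The full cAMP response element, TGACGTCA, to which CREB binds, was in 0 of the 8 windows, beside 1.79% of the 32851 promoters in the table, and its half-site TGACG, read on both strands and contained in the full element, was in 2, beside 20.8%. The 2 stretches with a half-site are shown 5′ to 3′ on the strand of the gene, with the half-site in capitals, because they are the only ones among these windows.
Camk1: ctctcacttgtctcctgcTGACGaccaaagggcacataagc
Camkk1: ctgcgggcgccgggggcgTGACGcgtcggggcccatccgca
The first lies at chr6:113344085-113344125 (minus strand), with its half-site starting 185 bases before the RefSeq start of Camk1. The second lies at chr11:73018804-73018844 (plus strand), with its half-site starting 166 bases before the RefSeq start of Camkk1. The RefSeq starts are those of the promoter windows and differ from the gene coordinates given below. Both stretches are matches of letters, not sites of binding, and for both genes DESeq2 returned 0.991 as the adjusted p.

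The CaMKII genes encode the 4 subunits from which the holoenzyme is built. Camk2a (ENSMUSG00000024617, chromosome 18, 60925618 to 60988152 on GRCm38) encodes the α subunit, which is largely restricted to excitatory forebrain neurons and carries much of the CaMKII function in plasticity. It had 99573, 110225 and 96759 normalized counts in control mice against 89722, 115985 and 98174 in p300-ifKO mice. Both the highest and the lowest of the 6 libraries were p300-ifKO libraries, replicates 2 and 1. The control mean of 102185 ± 7103 (SD, n = 3) stood beside a p300-ifKO mean of 101293 ± 13406 (SD, n = 3), and the log2 fold change was −0.013 (SE 0.14, 95% interval −0.29 to 0.26, adjusted p 0.997 in DESeq2). The sign of so small a value is not fixed: it was 0.072 with 1 surrogate variable and 0.049 with offsets for length and GC content. Arsi lies 7056 bases from Camk2a and, per the study, belongs to the cloned DNA (BAC) with which the driver strain was made. Its mean in p300-ifKO mice was 5.91 times that in control mice, and the ratio of the means was 0.991 for Camk2a. Counts over the whole gene cannot tell transcripts of the native Camk2a from any Camk2a exons expressed from the cloned DNA.

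Camk2b (ENSMUSG00000057897, chromosome 11, 5969644 to 6066362) encodes the β subunit, which binds F-actin and anchors the holoenzyme in spines. The control mice had 37369, 39558 and 35101 normalized counts of it, the p300-ifKO mice 38901, 39402 and 37695. The p300-ifKO values fell within the range of the controls. Its log2 fold change was 0.050 (SE 0.10, 95% interval −0.15 to 0.25), the narrowest interval of the family. It was 0.14 with length and GC offsets and lay between 0.010 without control replicate 3 and 0.096 without control replicate 2.

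Camk2g (ENSMUSG00000021820, chromosome 14, 20734875 to 20794088) encodes the γ subunit, known to carry calmodulin to the nucleus. Its counts were 5695, 5121 and 4793 normalized in control against 5137, 5270 and 5200 in p300-ifKO mice. The 3 p300-ifKO libraries lay close together, with a coefficient of variation of 1.28% against 8.78% in control. The log2 fold change was −0.00018 (SE 0.12, 95% interval −0.23 to 0.23).

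Camk2d (ENSMUSG00000053819, chromosome 3, 126596302 to 126846326) encodes the δ subunit, the main form in the heart. It had 1447, 1083 and 1324 normalized counts in control mice against 758, 992 and 1189 in p300-ifKO mice. The control mean was 1284 ± 185 (SD, n = 3) and the p300-ifKO mean 980 ± 216 (SD, n = 3), but p300-ifKO replicate 3 exceeded control replicate 2. The log2 fold change of −0.39 (SE 0.20, 95% interval −0.79 to 0.0070, unadjusted p 0.0542, adjusted p 0.991 in DESeq2) was the lowest of the 10 genes. It was −0.25 with 1 surrogate variable, −0.13 with length and GC offsets, and between −0.55 and −0.24 when 1 library was left out.

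The subunit make-up was then compared within each library, which needs no scaling between libraries. Per exonic length, the ratio of Camk2a to Camk2b counts was 3.26, 3.41 and 3.37 in control against 2.82, 3.60 and 3.18 in p300-ifKO mice. The control ratios fell inside the range of the p300-ifKO ratios. The log2 difference was −0.070 (two-sided exact permutation test over mice, p = 0.6, where 3 mice against 3 can reach no less than 0.1). Its sign turned without p300-ifKO replicate 1 (0.018). Of the CaMKII counts per length, Camk2a made up 73.4% ± 0.758 (SD, n = 3) for control and 72.6% ± 2.38 (SD, n = 3) for p300-ifKO mice, a difference of −0.83 percentage points (p = 0.6 in the same exact test) that was 0.34 without p300-ifKO replicate 1. The other shares in control and p300-ifKO mice were 21.9% and 22.8% for Camk2b, 4.37% and 4.38% for Camk2g and 0.308% and 0.234% for Camk2d. The exact p was 0.6, 1 and 0.2 for these genes in that order, and the 4 shares of a library are not independent since they add up to the whole. The spread of the Camk2a share was wider among the p300-ifKO libraries than among the controls, a difference of spread that was not tested.

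**Figure D2:**
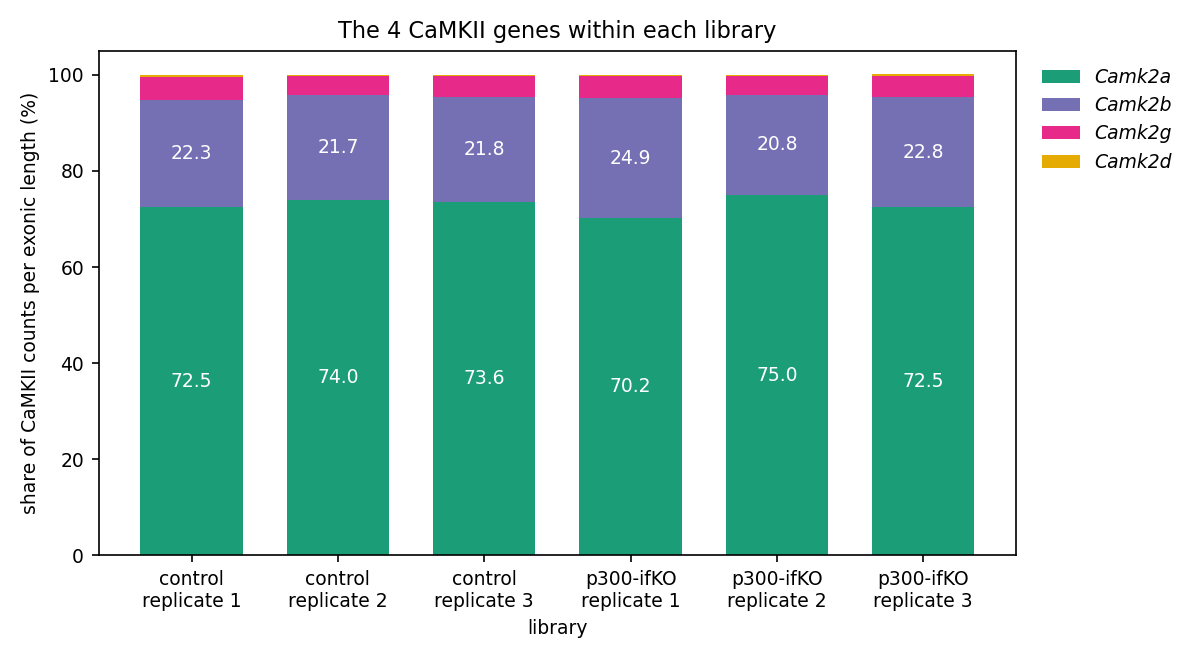
Share (%) of each CaMKII gene in the CaMKII counts per exonic length, 1 bar per library, with the shares of Camk2a and Camk2b printed. Camk2a takes between 70.2% and 75.0% of each bar, and p300-ifKO replicates 1 and 2 hold the lowest and the highest share.

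CaMKIV and the CaMKI isoforms act in a cascade below the CaMKKs. Camk4 (ENSMUSG00000038128, chromosome 18, 32934931 to 33191228), whose product CaMKIV phosphorylates CREB in the nucleus, had 354, 367 and 469 normalized counts in control mice against 280, 344 and 307 in p300-ifKO mice. The p300-ifKO values were all lower, with a gap as small as 344 against 354, and control replicate 3 stood above the rest. Control mice averaged 397 ± 63.3 (SD, n = 3) and p300-ifKO mice 310 ± 31.9 (SD, n = 3), with a log2 fold change of −0.35 (SE 0.18, 95% interval −0.71 to 0.0045, unadjusted p 0.0529, adjusted p 0.991 in DESeq2). It was −0.21 without control replicate 3 and −0.20 with 1 surrogate variable, and stayed below 0 under each alternative tried. Of its exonic bases, 72 (2.21%) overlap 2310026I22Rik on the opposite strand, a gene with a mean of 4.83 raw counts.

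Camk1 (ENSMUSG00000030272, chromosome 6, 113334124 to 113343984) encodes CaMKIα, a cytosolic kinase with a part in axon and dendrite growth. It had 1316, 1195 and 1092 normalized counts in control mice against 1665, 1197 and 1379 in p300-ifKO mice. p300-ifKO replicate 1 was the highest of the 6, and replicate 2 lay among the controls. The log2 fold change of 0.23 (SE 0.17, 95% interval −0.093 to 0.56, unadjusted p 0.161, adjusted p 0.991 in DESeq2) was the highest of the 10. It was 0.044 with 1 surrogate variable and 0.10 without p300-ifKO replicate 1. Ogg1, on the opposite strand, shares 232 exonic bases (3.88% of those of Camk1) and had a mean of 185 raw counts, and the strand setting of the counting is not stated.

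Camk1d (ENSMUSG00000039145, chromosome 2, 5293457 to 5714515), which encodes CaMKIδ, had 5861, 6769 and 6765 normalized counts in control mice against 4318, 6763 and 5631 in p300-ifKO mice. Its p300-ifKO libraries spread over the range of the controls and below it, with means of 6465 ± 523 (SD, n = 3) for control and 5570 ± 1224 (SD, n = 3) for p300-ifKO. The log2 fold change was −0.21 (SE 0.18, 95% interval −0.58 to 0.15), −0.021 with 1 surrogate variable, −0.063 when p300-ifKO replicate 1 was left out and −0.38 when replicate 2 was (adjusted p 0.0808 in DESeq2). Camk1g (ENSMUSG00000016179, chromosome 1, 193346346 to 193370298), which encodes the membrane-anchored CaMKIγ, had 1051, 915 and 974 normalized counts in control mice against 984, 901 and 873 in p300-ifKO mice. The ranges overlapped, and the log2 fold change was −0.093 (SE 0.13, 95% interval −0.34 to 0.16). It was −0.18 with length and GC offsets and ran from −0.14, with p300-ifKO replicate 1 left out, to −0.038, with control replicate 1 left out.

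The remaining genes encode the activating kinases. Camkk1 (ENSMUSG00000020785, chromosome 11, 73019008 to 73042073), which encodes CaMKKα, had 6058, 7006 and 6294 normalized counts in control mice against 6468, 5943 and 6336 in p300-ifKO mice. The values of the groups were interleaved, and the log2 fold change was −0.046 (SE 0.12, 95% interval −0.27 to 0.18). Camkk2 (ENSMUSG00000029471, chromosome 5, 122731170 to 122779409), whose product CaMKKβ also activates the energy sensor AMPK, had 3898, 4298 and 4002 normalized counts in control mice against 2918, 3911 and 3230 in p300-ifKO mice. The overlap came only from p300-ifKO replicate 2, which exceeded control replicate 1 by 3911 to 3898. Control mice averaged 4066 ± 208 (SD, n = 3) and p300-ifKO mice 3353 ± 508 (SD, n = 3), with a log2 fold change of −0.28 (SE 0.15, 95% interval −0.57 to 0.013, unadjusted p 0.0607, adjusted p 0.991 in DESeq2). It was −0.17 both with 1 surrogate variable and with length and GC offsets.

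**Figure D3:**
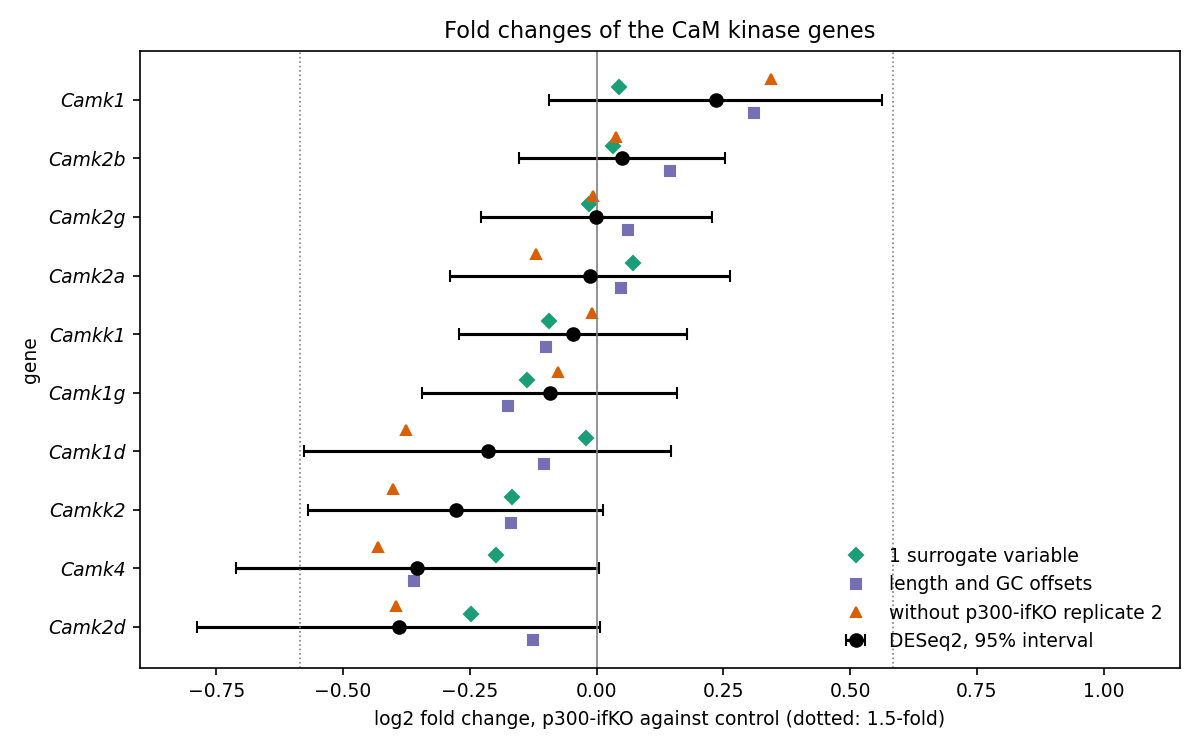
Log2 fold change of each CaM kinase gene (p300-ifKO against control, x axis) in DESeq2 with its 95% interval (black), and the value with 1 surrogate variable, with length and GC offsets, and without p300-ifKO replicate 2. The black intervals cross 0 for each gene, and those of Camk2d and Camk4 alone reach past the dotted line for a 1.5-fold decrease.

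The levels of the genes were set against each other per kilobase (kb) of exonic length, as means of the 6 libraries. Camk2a came first with 13629 normalized counts per kb, the level of rank 28 among the 32774 genes with a count, followed by Camk2b with 4165, Camkk1 with 1704, Camk2g with 813, Camk1d with 810, Camk1g with 344, Camkk2 with 340, Camk1 with 219, Camk4 with 109 and Camk2d with 50.3. Other than the pairs given below, the steps of this order were clear of the spread between mice. Camk2a exceeded Camk2b 2.82-fold to 3.60-fold within each library. The pairs of neighbours with overlapping ranges were Camk2g and Camk1d (the former higher in 3 of 6 libraries), Camk1g and Camkk2 (3 of 6), and Camkk2 and Camk1 (5 of 6). The lower part of the order depended on the length used, since the exonic length joins the exons of every annotated isoform and was 22493 bases for Camk2d against 5524 for its longest transcript. Per kb of the longest transcript, a choice made after seeing the data, ranks 1 to 5 were held by the genes named above in the same order, Camkk2 (763) and Camk1 (545) stood above Camk1g (385), and Camk2d (205) above Camk4 (130). Summed over the 10 genes, a library gave them 0.608% to 0.719% of its counts, and 0.361% to 0.462% to Camk2a alone.

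**Figure D4:**
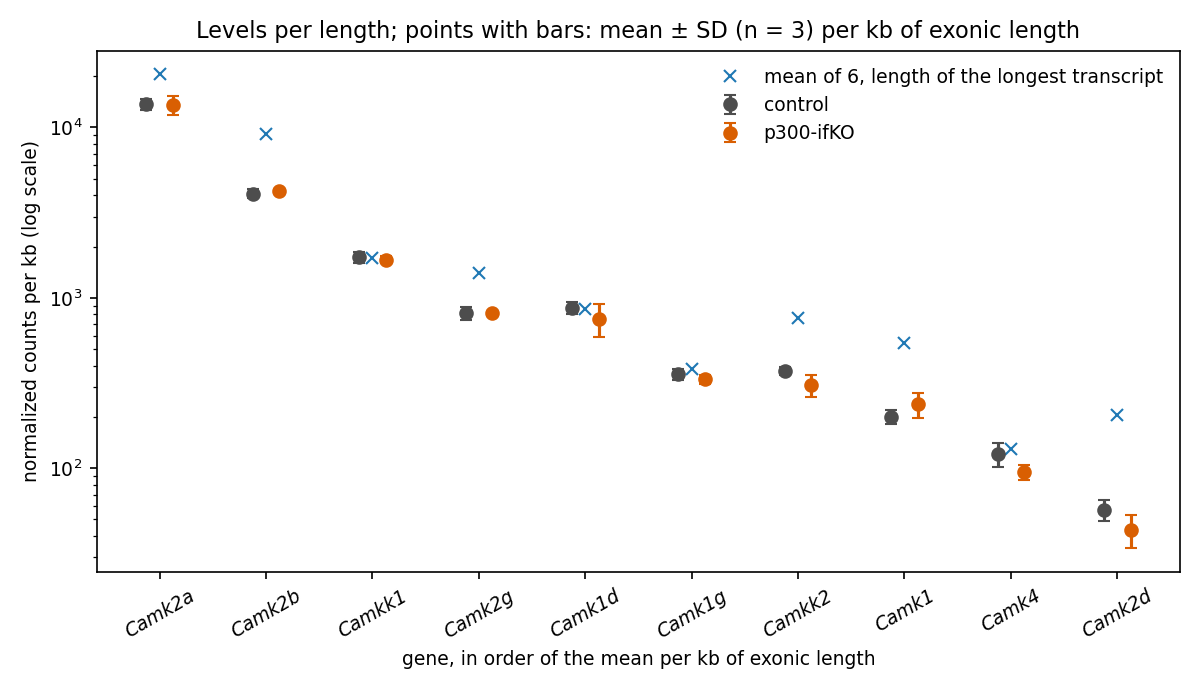
Normalized counts per kb of exonic length (log axis) of each CaM kinase gene in control (grey) and p300-ifKO (orange) mice, as mean ± SD (n = 3), with crosses for the mean of the 6 libraries per kb of the longest transcript. Levels run from 13629 for Camk2a to 50.3 for Camk2d per kb of exonic length, and the crosses raise Camk2d most.

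Several of the larger differences came with 1 library. p300-ifKO replicate 1 held the lowest value of 5 of the 10 genes (Camk2a, Camk2d, Camk4, Camk1d and Camkk2) and the highest of 1 (Camk1). Control replicate 2 held the highest value of 4 (Camk2b, Camk1d, Camkk1 and Camkk2) and control replicate 3 the lowest of 3 (Camk2b, Camk2g and Camk1). Over all genes, the fold changes followed exonic length. Among 12252 genes with a mean of 100 or more normalized counts, split by length into 4 classes of 3063 genes, the median log2 fold change was 0.20, 0.044, −0.049 and −0.15 from the shortest to the longest class. Of the CaM kinase genes, 1, 2, 2 and 5 were in these classes, and 3 of those in the longest class (Camk2d, Camk1d and Camkk2) had values below −0.15. With offsets that take up length and GC content, the median log2 fold change of the 10 genes was −0.10, against −0.070 without them. Over the genes with a mean of 100 or more normalized counts, the median was 0.038 with the offsets and −0.00435 without. The offsets brought Camk2d from −0.39 to −0.13, Camk1d from −0.21 to −0.10 and Camkk2 from −0.28 to −0.17, whereas Camk4 was −0.36 and Camk1 0.31 with them.

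**Figure D5:**
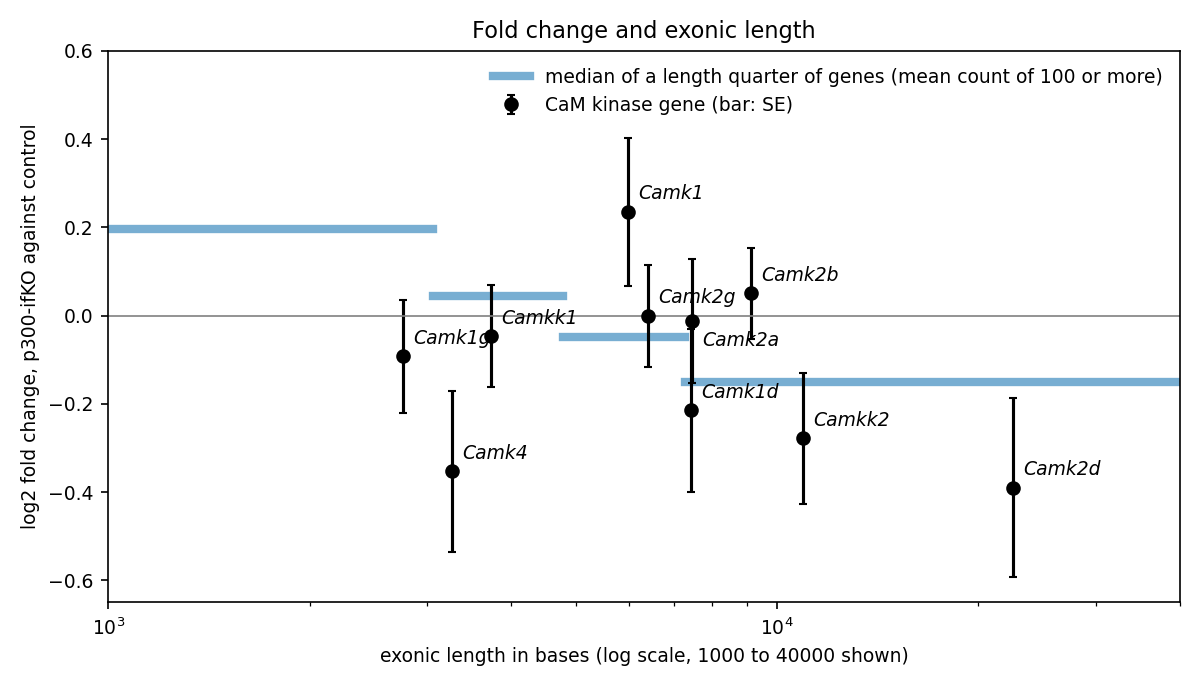
Log2 fold change (p300-ifKO against control, bar: SE) of the 10 CaM kinase genes by exonic length (log axis), with blue lines for the median of each of 4 length classes of the genes with a mean of 100 or more normalized counts. The medians step down from 0.20 to −0.15 with length, and Camk2d, Camkk2 and Camk1d lie on the lower right.

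The genes whose pattern over the 6 libraries was most like that of Camk2a were found by the root mean square difference of log2 values, each centred on its own mean, among 12251 genes with a mean of 100 or more normalized counts. These were Susd1, A830036E02Rik, Klhdc1, Slc9a2 and Tmem68, with differences between 0.033 and 0.037 on the log2 scale, where Camk2a itself varied by 0.12 and the median gene differed from it by 0.20. Susd1, for example, had 333, 361 and 320 normalized counts in control against 306, 407 and 336 in p300-ifKO mice. Its extremes were p300-ifKO replicates 2 and 1, a likeness to Camk2a that follows from how the gene was picked. For Slc9a2 and Tmem68, control replicate 2 was the highest library. The CaM kinase gene most like Camk2a in this measure was Camk2b (0.11, at rank 1696), and the least like it was Camk2d (0.31). This is a description of 6 libraries, and the part of depth, length and GC content in it was not tested.

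Genes that act with the CaM kinases were read as a list of 43. In DESeq2, 0 of 43 passed (0.00610% of all genes), 0 reached an unadjusted p under 0.05 (1.32%), and edgeR gave 0 adjusted (0.0117%) and 0 unadjusted. Of the 43, 29 were below and 14 above 0, where 54.7% of all genes were below 0. Their median log2 fold change was −0.074, beside −0.00435 over genes with a mean of 100 or more normalized counts. Each of the 43 was in that class, and the intervals excluded a 2-fold change for 43 of 43, beside 96.5% of the class. The groups did not overlap for 1 (3.42% of all genes in that direction and 6.64% in either), Rcan2, an inhibitor of the calcium-dependent phosphatase calcineurin, with 3348, 3383 and 3730 normalized counts in control against 3091, 3066 and 3016 in p300-ifKO mice (log2 fold change −0.19, SE 0.11, unadjusted p 0.0757 in DESeq2). Camk2n2, an inhibitor of CaMKII, had the highest value of the list, 0.42 (SE 0.23, unadjusted p 0.0713 in DESeq2), from 1367, 1110 and 1117 normalized counts in control against 2142, 1134 and 1543 in p300-ifKO mice. p300-ifKO replicate 2 lay within the controls for this gene too, and the value was 0.067 with 1 surrogate variable and 0.62 without that library (adjusted p 0.0247 in DESeq2). Grin2b, the NMDA receptor subunit to which CaMKII binds, had the lowest, −0.36 (SE 0.25), from 13067, 13285 and 16756 in control against 7411, 15149 and 11045 in p300-ifKO mice, and was −0.030 with 1 surrogate variable and −0.64, with an adjusted p of 0.0247 in DESeq2, when p300-ifKO replicate 2 was left out.

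In the other role groups, the gene with the smallest p in each was Pcp4, a calmodulin-binding peptide (0.36, SE 0.28), Ppm1e, a phosphatase of CaM kinases (−0.23, SE 0.19), Dapk1, a calmodulin-regulated death-associated kinase (−0.32, SE 0.19), Hdac4, a class II deacetylase exported from the nucleus after CaM kinase phosphorylation (−0.21, SE 0.17), Stk11, an activator of AMPK like CaMKKβ (0.22, SE 0.18), Pde1a, a calmodulin-activated phosphodiesterase (−0.32, SE 0.20) and, among the calmodulin genes, Calm2 (0.14, SE 0.15). Their unadjusted p lay between 0.0956 and 0.361 in DESeq2. Without p300-ifKO replicate 2, 7 of the 43 passed in DESeq2, in the fit that called 2.93% of all genes. That share covers genes of every count, whereas each of the 43 had a mean of 100 or more normalized counts. The share among genes of like count was not computed, so the 7 cannot be read as an excess. Among the 7 were Camk2n2 and Grin2b as given above, Pcp4 (0.62, adjusted p 0.0290), Dapk1 (−0.49, adjusted p 0.0337) and Pde1a (−0.53, adjusted p 0.0247).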

How the data were processed

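Total RNA from the hippocampus of 6 mice had been sequenced by the authors as single-end reads of 50 bases. Per the methods of the study, reads were trimmed, aligned to mm10 (GRCm38) with STAR, kept above a mapping quality of 10 and counted on exons of Ensembl release 99 genes with Rsubread; the processing notes of the submitters list FastQC 0.11.8, Trim Galore 0.6.4, STAR 2.6.1 and DESeq2 1.30.1. The deposited values were raw counts per gene, with the exonic length of each gene in a further column of lengths in bases. A strand setting is not stated. Reads with several matches were lost to the mapping quality limit. Unused per-sample columns numbered 0.

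Symbols and coordinates came from GENCODE M21 (GRCm38), which held 55230 of the 55471 identifiers (99.57%). The exonic length of the 10 genes was identical in both. The comparison used the DESeq2 (1.42.0, R 4.3.3) Wald test, two-sided, with Benjamini-Hochberg adjustment over the whole table. Alternatives were edgeR (4.0.16, quasi-likelihood, with and without its filter), limma-voom (3.58.1), TMM factors, a minimum of 10 counts in 3 libraries, a replicate block, 1 surrogate variable (sva 3.50.0), smooth offsets per library for length and GC content of the longest transcript (mgcv 1.9.3) and leaving out each library. The length of the longest transcript was added, and p300-ifKO replicate 2 singled out among the libraries left out, after seeing the data. The scripts were tested on simulated data with known changes.

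The 10 genes and all lists were chosen with earlier results of these data known. Genes named beside the 10 were fixed by rule: 4 checks, the smallest p of each role group, the extremes of the list, the 5 patterns closest to Camk2a and genes overlapping in exons.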

Additional observations from a re-analysis of the deposited data

How the results depend on the processing

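The CaM kinase count of 0 and the pathway count of 0 held under each alternative that kept all libraries. Leaving out 1 library gave from 0 to 1 CaM kinase genes, from 0 to 7 pathway genes and from 2 to 938 genes in all, the highest each time without p300-ifKO replicate 2. Over all genes the count was 2 in the main fit, 3 with 1 surrogate variable and 4 with the replicate block. With that block the difference in the Camk2a to Camk2b ratio had an exact p of 0.5 where 3 pairs allow no less than 0.25. The block changed no call among the CaM kinase genes. The numbers are not known to mark related mice, and same-numbered libraries deviated from their group means with correlations of 0.27, −0.28 and 0.13 over 17071 genes. Ep300 passed with 1 surrogate variable (−0.48, adjusted p 0.00127 in DESeq2) and ranged from −1.36 to −0.66 when 1 library was left out; its adjusted p ran from 0.000356 to 1 over the alternatives. The median of the 10 genes kept its direction under each of 14 alternatives, from −0.10 to −0.056. Of 140 values of single CaM kinase genes, 124 kept their direction and their side of the threshold, 1 passed it (Camkk2 without p300-ifKO replicate 2) and 15 changed sign, all for Camk2a, Camk2g and Camkk1. Camk2a was 0.072 with 1 surrogate variable and 0.049 with length and GC offsets. Camk2g was 0.0057 in edgeR, 0.011 in edgeR with no filter, 0.0088 in limma-voom, 0.011 with TMM factors, 0.0034 with the replicate block and 0.061 with length and GC offsets. Leaving out 1 library gave from −0.12 to 0.066 for Camk2a, −0.053 to 0.071 for Camk2g and −0.089 to 0.019 for Camkk1, from −0.16 to 0.018 for the log2 Camk2a to Camk2b ratio and from −2.04 to 0.34 percentage points for the Camk2a share. The cause was not tested.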
